A study of Homo sapiens with 8 samples.

Results

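The genes described here were 10 components of the BMP and TGF-beta signalling pathways, out of 63677 genes in the deposited count tables. They were the ligands BMP4 and TGFB1, the TGFB1-anchoring protein NRROS, the receptors TGFBR1 and TGFBR2, the signal transducer SMAD3, the inhibitory SMADs SMAD6 and SMAD7, and the co-repressors SKI and SKIL. They were taken by symbol from a list chosen by their pathway and with the log2 fold changes of ACBI-1 over DMSO and the line differences of these libraries already known. Those values are therefore given as descriptions, with no p-value. Where members are counted or named as passing a threshold, nothing is read from it. All 10 symbols matched 1 gene each.

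RNA was sequenced from DND-41 and MOLT-4, both established human lines of T-cell acute lymphoblastic leukaemia, a malignancy of immature T cells. ACBI-1 is a bifunctional degrader that recruits a ubiquitin ligase, VHL, to the SWI/SNF chromatin remodelling ATPases SMARCA2 and SMARCA4 and to the PBAF subunit PBRM1. The 4 groups, of 2 libraries each, were DND-41 with 100 nM ACBI-1 for 3 h, DND-41 with DMSO (the solvent) for 3 h, MOLT-4 with 100 nM ACBI-1 for 3 h, and MOLT-4 with DMSO for 3 h. Whether the libraries of a group came from separate cultures is not given, so every p-value below reflects the scatter of these libraries alone, possibly a technical one.

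BMPs and TGF-betas are secreted dimers that bring type I and type II serine/threonine kinase receptors together. Type I receptors phosphorylate receptor SMADs, SMAD2 and SMAD3 after TGF-beta and activin, and SMAD1, SMAD5 and SMAD9 after BMP, which enter the nucleus with SMAD4 to regulate target genes such as the ID family. SMAD6 and SMAD7 block the receptors, and SKI and SKIL hold SMAD complexes in a repressed state. In thymocytes and T cells, TGF-beta restrains proliferation and shapes differentiation, and BMP4 from thymic stroma acts on early progenitors.

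Total counts lay between 19867779 and 20082524 per library, so a gene with 3 counts, the upper limit that a count of 0 allows, lay at about 0.15 CPM (reads scaled to a common library total). Such limits cover counting error only. T-lineage markers were present in both lines, with CD3E between 24272 and 33204 counts over the 8 libraries. The pre-TCR gene PTCRA was the exception, with at most 1 count in DND-41. TLX3, the homeobox oncogene that marks DND-41, had 4611 to 7523 counts there and no more than 9 in MOLT-4, and TAL1, which marks MOLT-4, had no more than 4 counts in DND-41 and 722 to 796 in MOLT-4. LYZ, CD33, MS4A1, HBA1, HBB and HBG1, defining genes of myeloid, B and erythroid cells, had 0 counts in every library, whereas CD79A, a B-lineage gene, had between 31024 and 35375 counts in DND-41. PDGFRB, a stromal receptor gene, accounted for most of the 680 to 708 counts summed over 7 fibroblast and epithelial markers in DND-41 with ACBI-1, against 955 to 1162 with DMSO. Its part in the results was not tested.

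Some libraries stood apart. The DND-41 ACBI-1 libraries differed most from each other, with 17.4% and 13.3% of counts from mitochondrially encoded genes, and the DND-41 DMSO replicate 2 library held reads of 23 of 23 genes highly expressed in MOLT-4 only, at a median of 0.547% of their MOLT-4 level. Where ranges for leaving out 1 library at a time are given below, those that use DND-41 cover both. They are not given for every gene. In cultures measured in bulk, fewer cells that express a gene and less RNA per cell cannot be told apart.

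BMP4 was read in MOLT-4 and not in DND-41. In MOLT-4 it had 59 and 63 counts with ACBI-1, against 180 and 176 with DMSO, which was 3.07 ± 0.15 CPM against 8.96 ± 0.14 CPM (SD, n = 2 libraries each). Both ACBI-1 libraries lay far below both DMSO libraries, a 2.97-fold lower level and a log2 fold change, ACBI-1 over DMSO, of -1.57 ± 0.16 (standard error, SE, from edgeR). Leaving out 1 library at a time gave log2 fold changes between -1.62 and -1.51. All 4 DND-41 libraries had 0 counts of BMP4, so its response there was not detectable at this depth.

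TGFB1, the TGF-beta ligand that lymphocytes make and secrete in a latent form, was the second ligand on the list. In DND-41 it had 4582 and 5235 counts with ACBI-1, against 6068 and 5686 with DMSO. Both ACBI-1 libraries were below both DMSO libraries, with a log2 fold change of -0.27 ± 0.07, and leaving out 1 library gave between -0.35 and -0.19. In MOLT-4, TGFB1 had 1748 and 1576 counts with ACBI-1, against 1917 and 1843 with DMSO, a log2 fold change of -0.21 ± 0.07 that leaving out 1 library moved to between -0.27 and -0.14. The lower level was thus small and of the same sign in both lines. The annotated exons of TGFB1 share 215 bases (6.64%) with HNRNPUL1 on the opposite strand, and since the strand setting of the counting is not given, reads there cannot be assigned to one gene.

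NRROS, a transmembrane protein that tethers latent TGFB1 to the cell surface and is known from myeloid cells and microglia, went in opposite directions in the 2 lines. In DND-41 it had 5136 and 5631 counts with ACBI-1, against 4011 and 3972 with DMSO, a log2 fold change of 0.42 ± 0.07. In MOLT-4 it had 6633 and 6352 counts with ACBI-1, against 7717 and 7281 with DMSO, a log2 fold change of -0.24 ± 0.06. The ACBI-1 and DMSO libraries did not overlap in either line. Leaving out 1 library gave between 0.37 and 0.47 in DND-41 and between -0.28 and -0.19 in MOLT-4. NRROS shares 222 exon bases (7.63%) with PIGX on the same strand, whose counts were between 581 and 724 over all libraries.

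Of the receptors, TGFBR1 encodes the type I kinase that phosphorylates SMAD2 and SMAD3. It had 442 and 448 counts in DND-41 with ACBI-1, against 551 and 575 with DMSO, and 187 and 185 counts in MOLT-4 with ACBI-1, against 248 and 257 with DMSO. Replicates of a group were close and the ACBI-1 libraries lay below in both lines, with log2 fold changes of -0.35 ± 0.09 in DND-41 and -0.47 ± 0.12 in MOLT-4.

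TGFBR2, the type II receptor that binds TGF-beta and activates TGFBR1, had 436 and 395 counts in DND-41 with ACBI-1, against 596 and 600 with DMSO. This was a log2 fold change of -0.53 ± 0.09, between -0.62 and -0.45 when 1 library was left out. In MOLT-4 it had 643 and 677 counts with ACBI-1, against 627 and 600 with DMSO, a log2 fold change of 0.08 ± 0.08. In DND-41 the ACBI-1 libraries lay below the DMSO libraries for both receptors, and in MOLT-4 they lay below for TGFBR1 and slightly above for TGFBR2.

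SMAD3 was the signal transducer on the list and was expressed at a low level in both lines. In MOLT-4 it had 37 and 36 counts with ACBI-1, against 72 and 113 with DMSO, a 2.58-fold lower level with a log2 fold change of -1.37 ± 0.23. The DMSO libraries differed from each other, and leaving out 1 library gave between -1.66 and -1.01. In DND-41 it had 15 and 15 counts with ACBI-1, against 33 and 17 with DMSO, with a log2 fold change of -0.74 ± 0.38. It was -1.14 without DMSO replicate 2 and -0.20 without DMSO replicate 1, so 1 library set its size.

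SMAD6, an inhibitory SMAD that acts mainly against BMP receptors, was mainly a DND-41 transcript. It had 285 and 389 counts in DND-41 with ACBI-1, against 426 and 431 with DMSO, a log2 fold change of -0.36 ± 0.11. Both ACBI-1 libraries were below both DMSO libraries, but they stood further from each other than replicate 2 stood from DMSO, and leaving out 1 library gave between -0.58 and -0.16. In MOLT-4 it had 23 and 38 counts with ACBI-1, against 39 and 30 with DMSO, and these libraries overlapped.

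SMAD7, the inhibitory SMAD that acts on TGF-beta and BMP receptors alike, was close to the limit of detection. It had 4 and 4 counts in DND-41 with ACBI-1, against 6 and 18 with DMSO, and 0 and 0 counts in MOLT-4 with ACBI-1, against 0 and 1 with DMSO. It did not pass the filter on low counts in any edgeR comparison reported here, and no fold change is given. DESeq2, run without that filter, called SMAD7 between the lines in DMSO.

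The co-repressors SKI and SKIL (also called SnoN) bind SMAD2, SMAD3 and SMAD4. In MOLT-4, SKIL had 45 and 46 counts with ACBI-1, against 84 and 93 with DMSO, a 1.98-fold lower level with a log2 fold change of -0.99 ± 0.20. In MOLT-4, SKI had 171 and 166 counts with ACBI-1, against 241 and 226 with DMSO, a log2 fold change of -0.50 ± 0.12. Both genes were lower in each MOLT-4 ACBI-1 library than in either DMSO library. In DND-41, SKIL had 298 and 278 counts with ACBI-1, against 285 and 260 with DMSO, which overlapped, and SKI had 777 and 820 counts with ACBI-1, against 897 and 842 with DMSO. In DND-41 both differences were within 2 SE of 0, with log2 fold changes of 0.07 ± 0.11 for SKIL and -0.13 ± 0.08 for SKI.

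**Figure D1:**
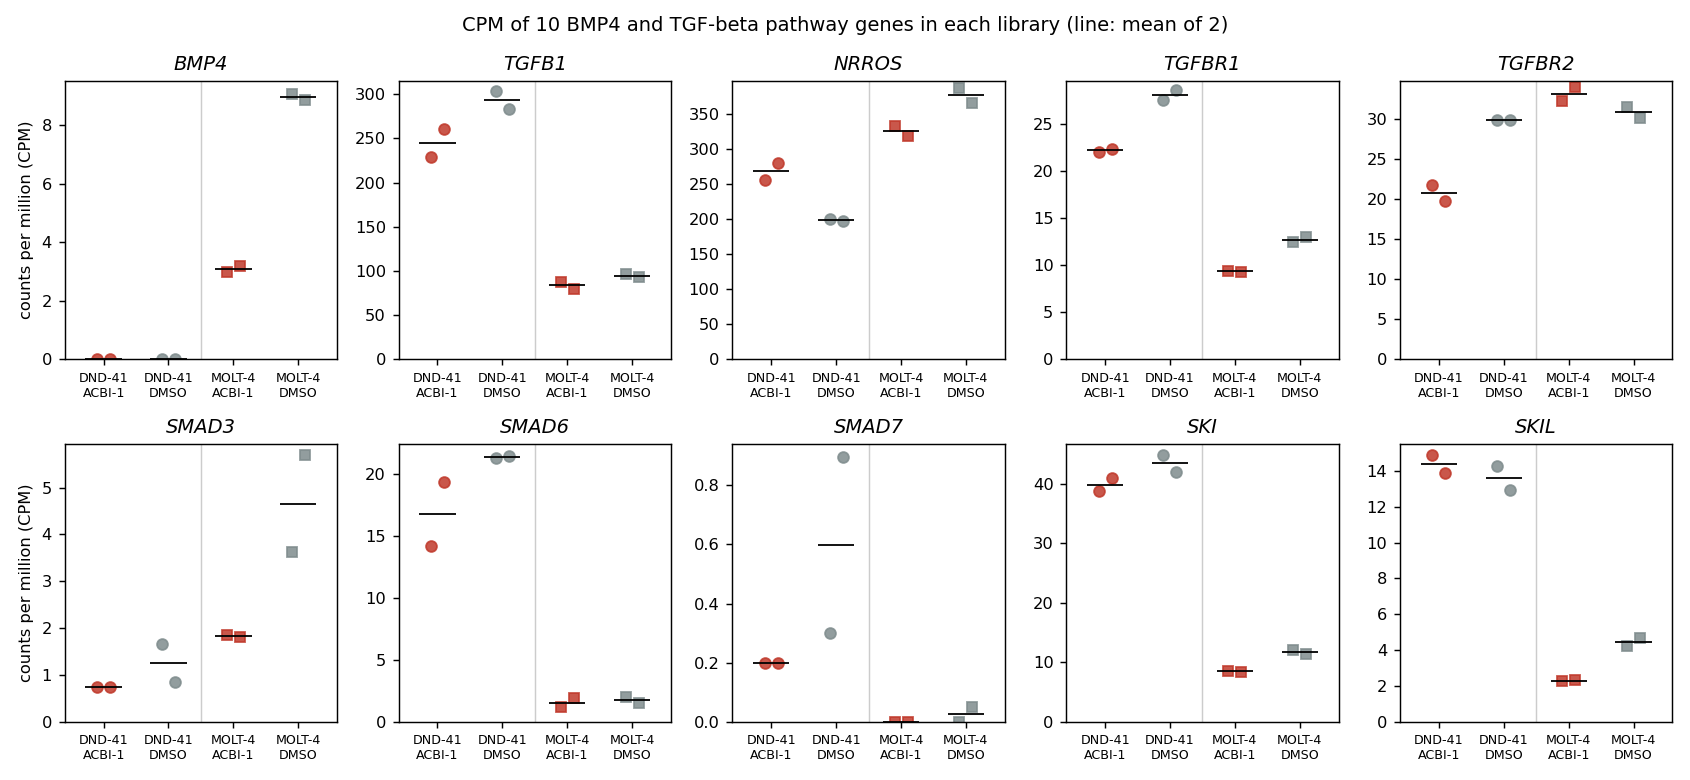
CPM of the 10 genes in each library, by line and treatment, with points for libraries. BMP4 averaged 3.07 CPM with ACBI-1 and 8.96 CPM with DMSO in MOLT-4 and had 0 counts in DND-41, while TGFB1 and NRROS were the most abundant of the 10 in both lines.

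Counted over the list, 8 of the 10 genes could be tested in DND-41, and 1 was higher and 4 were lower at an adjusted p threshold of 5% over all genes. Among all 14019 genes tested there, 3.78% were higher, 6.05% were lower and 9.83% passed in either direction. In MOLT-4, 9 could be tested, and 0 were higher and 7 lower, where 3.9% of 14470 genes were higher, 6.94% were lower and 10.8% passed in either direction. The median log2 fold change of the tested members was -0.31 in DND-41, against 0.00294 over all genes, and -0.47 in MOLT-4, against -0.000965 over all genes. SMAD6 and TGFB1 were among the lower genes whose calls held in few alternatives, SMAD6 in 4 of 11 in DND-41 and TGFB1 in 1 of 10 in MOLT-4. Nothing is read from these counts, because the members were chosen with these contrasts known. With DESeq2 in place of edgeR, 3 members passed in each line, TGFB1, TGFBR2 and NRROS in DND-41 and BMP4, SMAD3 and NRROS in MOLT-4. Over all genes, DESeq2 called 612 in DND-41 and 689 in MOLT-4. Without DND-41 ACBI-1 replicate 1 no member passed in DND-41, without DND-41 ACBI-1 replicate 2 it was 1 and without either DMSO library it was 2. Without either of the MOLT-4 ACBI-1 libraries no gene of the genome passed in MOLT-4 with edgeR, although 1874 and 2273 genes had an unadjusted p under 0.05.

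**Figure D2:**
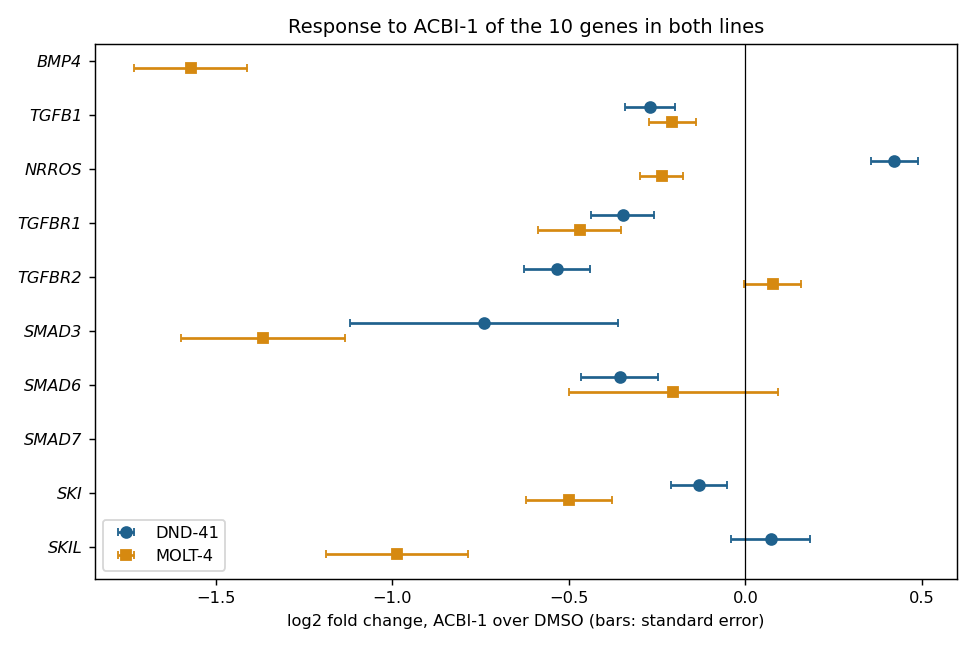
Log2 fold changes, ACBI-1 over DMSO, of the tested members in DND-41 and MOLT-4, with bars of 1 standard error. BMP4 (-1.57), SMAD3 (-1.37) and SKIL (-0.99) lay lowest in MOLT-4, and NRROS was on opposite sides of 0, with 0.42 for DND-41 and -0.24 for MOLT-4.

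The proximal promoters of the genes with the lowest log2 fold changes in MOLT-4, BMP4, SMAD3 and SKIL, and of the BMP-pathway inhibitor SMAD6, are shown so that their letters can be read beside the values above. RefSeq promoters on GRCh38.p14 were matched for 9 of the 10 members. The 250 bases before the annotated start are given 5′ to 3′ on the gene's strand, at chr14:53955051-53955300 (minus strand) for BMP4, chr15:67065352-67065601 (plus) for SMAD3, chr3:170357465-170357714 (plus) for SKIL and chr15:66701986-66702235 (plus) for SMAD6. Capitals mark matches on either strand to GTCTAGAC and CAGACA (SMAD-binding elements), GGCGCC (a GC-rich SMAD motif), TGACGTCA (a cAMP response element) and TGAGTCA (an AP-1 site).
BMP4: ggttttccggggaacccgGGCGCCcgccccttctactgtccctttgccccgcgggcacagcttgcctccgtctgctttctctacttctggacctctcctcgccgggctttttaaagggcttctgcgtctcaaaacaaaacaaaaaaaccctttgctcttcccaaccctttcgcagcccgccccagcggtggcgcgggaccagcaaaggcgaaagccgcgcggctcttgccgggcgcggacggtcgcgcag
SMAD3: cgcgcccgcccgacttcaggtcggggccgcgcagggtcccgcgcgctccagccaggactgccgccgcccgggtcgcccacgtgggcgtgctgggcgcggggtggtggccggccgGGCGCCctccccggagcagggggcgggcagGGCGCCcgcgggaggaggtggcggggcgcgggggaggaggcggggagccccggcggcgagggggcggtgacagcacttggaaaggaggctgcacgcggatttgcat
SKIL: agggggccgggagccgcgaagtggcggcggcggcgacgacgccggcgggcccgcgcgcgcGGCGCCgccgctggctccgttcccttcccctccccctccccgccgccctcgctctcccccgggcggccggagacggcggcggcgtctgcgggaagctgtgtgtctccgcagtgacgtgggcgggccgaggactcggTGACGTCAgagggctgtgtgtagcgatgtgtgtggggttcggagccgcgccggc
SMAD6: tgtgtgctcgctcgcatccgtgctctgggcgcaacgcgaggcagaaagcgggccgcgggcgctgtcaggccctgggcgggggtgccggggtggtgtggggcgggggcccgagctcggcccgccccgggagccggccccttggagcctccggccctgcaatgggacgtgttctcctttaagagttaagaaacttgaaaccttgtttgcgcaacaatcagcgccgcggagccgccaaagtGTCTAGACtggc

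In these promoters the GC content of the 250 bases was 63.6% for BMP4, 80.8% for SMAD3, 78.4% for SKIL and 68.0% for SMAD6. In windows that run 50 bases past the start, GGCGCC stood in 3 of the 9 members, BMP4, SMAD3 and SKIL, and in 19.0% of all 27305 promoters. It began 232 bases before the start of BMP4 and again just past that start, outside the bases printed, 136 and 106 bases before that of SMAD3 and 190 bases before that of SKIL. The palindromic GTCTAGAC stood in SMAD6 alone of the 9, beginning 12 bases before its start, and in 0.201% of all promoters. SKIL also held TGACGTCA, beginning 54 bases before its start, a motif found in 1.98% of promoters. CAGACA, in 16.8% of promoters, and TGAGTCA, in 4.92%, were in none of the 9 windows. No matches overlapped each other. These are matches of letters, and no binding was measured.

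The lines differed in the levels of these genes before any degrader was added. On the scale of CPM per kilobase of annotated exon, the DND-41 DMSO libraries ran in the order TGFB1 (87.4 to 93.9), NRROS (68.0 to 69.0), SKI (6.90 to 7.39), TGFBR2 (6.35), TGFBR1 (4.03 to 4.18), SMAD6 (2.49 to 2.51), SKIL (1.66 to 1.83) and then SMAD3 and SMAD7, whose ranges overlapped, with BMP4 at 0. The MOLT-4 DMSO libraries ran in the order NRROS (126 to 133), TGFB1 (28.7 to 29.8), TGFBR2 (6.42 to 6.70), BMP4 (2.87 to 2.94), SKI and TGFBR1, which overlapped between 1.82 and 1.99, SKIL and SMAD3, which overlapped between 0.397 and 0.624, SMAD6 (0.176 to 0.229) and SMAD7 (at most 0.01). BMP4 was therefore the fourth of the 10 in MOLT-4 with DMSO, and with ACBI-1 its level per kilobase was 0.961 to 1.03. In DND-41 the 2 most abundant genes stood the other way round with ACBI-1, NRROS at 88.2 to 96.6 and TGFB1 at 70.7 to 80.7 CPM per kilobase.

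**Figure D3:**
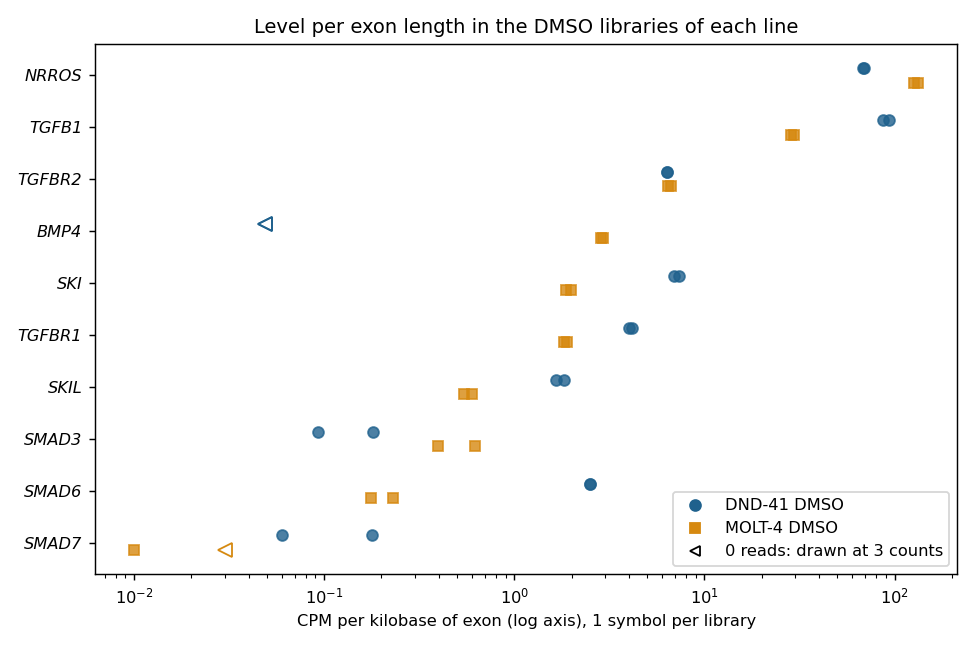
Levels of the 10 genes as CPM per kilobase of annotated exon in the DMSO libraries of each line, on a log axis, with points for libraries. Libraries with 0 reads of a gene are drawn as open symbols at the level of 3 counts. SMAD6 lay at 2.49 to 2.51 in DND-41 and 0.176 to 0.229 in MOLT-4. BMP4 had 0 reads in DND-41 and lay at 2.87 to 2.94 in MOLT-4.

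Set against MOLT-4 in DMSO, DND-41 had at least 59.8-fold less BMP4, with 3 counts per library as the floor for its 0 counts. SMAD6 was 11.9-fold higher in DND-41, with 21.4 ± 0.09 CPM in DND-41 against 1.74 ± 0.32 CPM in MOLT-4 (SD, n = 2 each) and a log2 difference of 3.57 ± 0.18. TGFB1, SKI, SKIL and TGFBR1 were also higher in DND-41, with log2 differences of 1.58 ± 0.07, 1.84 ± 0.09, 1.56 ± 0.14 and 1.10 ± 0.09. SMAD3 and NRROS were lower in DND-41, with log2 differences of -1.94 ± 0.27 and -0.97 ± 0.07. TGFBR2 had 29.9 ± 0.02 CPM in DND-41 and 30.9 ± 0.94 CPM in MOLT-4, with a log2 difference of -0.10 ± 0.08. Of 9 members tested, 5 were higher and 3 lower in DND-41, where 31.6% of all 15604 genes were higher, 32.8% lower and 64.4% passed in either direction.

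The receptors and SMADs outside the list showed which branches each line expressed in DMSO. BMPR1B, a type I BMP receptor, had 431 and 382 counts in DND-41 and 0 and 3 in MOLT-4, while BMPR1A, also a BMP type I receptor, had 136 and 122 counts in DND-41 and 321 and 282 in MOLT-4 (log2 difference -1.29 ± 0.13, edgeR adjusted p = 1.97e-09). The BMP-branch transducer SMAD5 had 0 and 1 counts in DND-41 and 262 and 333 in MOLT-4. SMAD1, of the same branch, had 53 and 55 counts in DND-41 and 692 and 770 in MOLT-4 (-3.82 ± 0.14, adjusted p = 4.15e-19). SMAD4, the common partner, was higher in DND-41 (0.83 ± 0.08, adjusted p = 1.44e-10), as was SMAD2 (0.34 ± 0.07, adjusted p = 0.000117). The transducers of the BMP branch were thus low in DND-41, and the TGF-beta transducer SMAD2 was present in both lines. SMAD9, the remaining BMP-branch transducer, had 11 and 19 counts in DND-41 and 5 and 8 in MOLT-4.

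Among other ligands, AMH, the anti-Müllerian hormone gene, had 1832 and 1697 counts in DND-41 and 196 and 212 in MOLT-4, and TGFB3 had 136 and 111 in DND-41 and 41 and 28 in MOLT-4. GDF10 had 0 and 1 counts in DND-41 and 237 and 222 in MOLT-4. The latent TGF-beta binding proteins differed by member, LTBP1 with 8 and 9 counts in DND-41 and 288 and 315 in MOLT-4, LTBP4 with 49 and 51 in DND-41 and 577 and 611 in MOLT-4, and LTBP3 with a log2 difference of 0.75 ± 0.11 (edgeR adjusted p = 1.24e-06). Of the secreted antagonists, FSTL1 had 10 and 16 counts in DND-41 and 674 and 709 in MOLT-4, and CHRDL1 had 0 and 1 in DND-41 and 64 and 53 in MOLT-4. FSTL3 was higher in DND-41, with a log2 difference of 1.34 ± 0.15 (edgeR adjusted p = 1.44e-08). MMP9, a protease that can release TGF-beta from its latent form, had 119 and 150 counts in DND-41 and 1 and 1 in MOLT-4.

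Reported targets of the pathway, and the regulators and partners of SMADs, fell on both sides. In DMSO, IL7R, the interleukin-7 receptor gene, had 11312 and 10377 counts in DND-41 and 23 and 37 in MOLT-4, and RUNX3, a transcription factor that partners SMADs, had 2742 and 2489 in DND-41 and 136 and 147 in MOLT-4. KLF10, the TGF-beta-inducible early gene, had 283 and 258 counts in DND-41 and 1247 and 1349 in MOLT-4, and MSX1, a BMP-responsive homeobox gene, 5 and 1 in DND-41 and 187 and 206 in MOLT-4. PMEPA1, a feedback inhibitor of TGF-beta receptors, had 6 and 28 counts in DND-41 and 2916 and 3113 in MOLT-4, with the 28 in the DND-41 library that held MOLT-4 reads. ZEB2, a SMAD-binding repressor, had 64 and 70 counts in DND-41 and 1 and 0 in MOLT-4, and the TGF-beta-activated kinase gene MAP3K7 was higher in DND-41 by a log2 difference of 0.89 ± 0.07 (edgeR adjusted p = 8.88e-12). Of the 137 genes in 7 lists of other pathway components, 88 were tested between the lines, and 38 were higher and 29 lower in DND-41, which was 76.1% against 64.4% of all genes. The median log2 difference was 0.17 for these 88, against -0.0062 over all genes.

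The responses of the lines to ACBI-1 were also set against each other in 1 fit, as the DND-41 response minus the MOLT-4 response. Of the members, NRROS and SKIL were higher by 0.63 ± 0.09 and 1.03 ± 0.22 and TGFBR2 was lower by 0.64 ± 0.12 on the log2 scale. Leaving out 1 library at a time gave differences between 0.58 and 0.70 for NRROS, 0.97 and 1.14 for SKIL, and -0.72 and -0.55 for TGFBR2. SMAD3 (0.60 ± 0.48), SMAD6 (-0.18 ± 0.33), TGFB1 (-0.09 ± 0.10), TGFBR1 (0.10 ± 0.14) and SKI (0.34 ± 0.14) had smaller differences or wider errors, which does not show that the lines responded alike. These members were listed with the differences known, so the values are a description. Of all 15604 genes in that fit, 0.641% were called, 0.442% higher and 0.199% lower, and of the other pathway components 4 of 88 were higher and 0 lower, which was 4.55%. For BMP4 no such difference can be given, as DND-41 had no reads.

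Of the other pathway components, 77 were tested in DND-41, and 5 were higher and 10 lower with ACBI-1, which was 19.5% against 9.83% of all genes. In MOLT-4, 78 were tested, and 1 was higher and 18 lower, which was 24.4% against 10.8% of all genes (9 called with DESeq2). Their medians were -0.08 in DND-41 and -0.05 in MOLT-4, against 0.00294 and -0.000965 over all genes. These lists, too, were drawn up with earlier results in view, so nothing is read from their shares in any comparison, together or list by list. Of those lower, 7 were shared by both lines, GDF11, TWSG1, SMAD4, SMURF2, ID1, CXCR4 and CCR7, which was 70% of the 10 in DND-41 and 38.9% of the 18 in MOLT-4. Over all genes, 431 were lower in both lines, 50.8% of the 848 in DND-41 and 42.9% of the 1004 in MOLT-4. With DESeq2 the shared pathway genes were 4, GDF11, SMURF2, ID1 and CXCR4, of 9 lower in DND-41 and 8 in MOLT-4. The 1 higher gene in MOLT-4, NOG, had too few reads to be tested in DND-41, with 4 and 9 counts with ACBI-1, against 0 and 1 with DMSO.

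Among 9 tested genes of the ligand list in DND-41, 1 was higher and 1 lower. Of all genes, 9.83% passed in DND-41 and 10.8% in MOLT-4. BMP10, a ligand of the ALK1 receptor known from the heart, had 39 and 29 counts with ACBI-1, against 7 and 12 with DMSO (log2 fold change 1.82 ± 0.39, edgeR adjusted p = 0.00143). DESeq2 gave BMP10 no adjusted p, and the edgeR call was lost without either ACBI-1 library or without DMSO replicate 1. Such losses were not particular to BMP10. Without DND-41 ACBI-1 replicate 1, the edgeR calls of the other pathway components in DND-41 were lost too, except CXCR4 and ID3. In MOLT-4 every such call was lost on leaving out either ACBI-1 library. GDF11, an activin-like ligand, was lower in both lines, at -0.43 ± 0.09 in DND-41 (edgeR adjusted p = 0.00156) and -0.54 ± 0.09 in MOLT-4 (edgeR adjusted p = 6.74e-05). In MOLT-4, 2 of 7 tested genes of the ligand list were lower and 0 higher. The other was BMP1 (-0.31 ± 0.10, edgeR adjusted p = 0.0437), which is named as a BMP but encodes a protease. BMP1 was not called with DESeq2. Of the tested genes of ligand latency, 0 of 7 in DND-41 and 0 of 6 in MOLT-4 passed with edgeR or DESeq2, and 1 in each line had an unadjusted edgeR p under 0.05.

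Of 6 secreted antagonists tested in MOLT-4, 1 was higher and 2, TWSG1 and FSTL1, were lower with edgeR, where 3.9% of all genes were higher and 6.94% lower. NOG alone of the 3 was called with DESeq2. NOG encodes noggin, which binds and blocks BMP4. It had 70 and 67 counts in MOLT-4 with ACBI-1, against 26 and 23 with DMSO, which gave a log2 fold change, ACBI-1 over DMSO, of 1.45 ± 0.24 (edgeR adjusted p = 0.000143). All of its ACBI-1 libraries lay above its DMSO libraries, on the side opposite to BMP4. TWSG1, a BMP-binding modulator, had 171 and 157 counts in DND-41 with ACBI-1, against 258 and 267 with DMSO (-0.69 ± 0.13, adjusted p = 0.000252), and was lower in MOLT-4 at -0.67 ± 0.14 (adjusted p = 0.00194, but 0.0606 with DESeq2).

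Of the receptors, 9 were tested in DND-41 and 8 in MOLT-4. In DND-41, 22.2% of them passed, against 9.83% of all genes, and in MOLT-4 10.8% of all genes passed. In DND-41, ACVR2B, a type II activin receptor, was lower (-0.46 ± 0.10, edgeR adjusted p = 0.00158) and RGMA, a BMP co-receptor, was higher (0.31 ± 0.08, adjusted p = 0.0151) with edgeR, although RGMA was not called with DESeq2 (adjusted p = 0.132). In MOLT-4, 0 of the 8 passed with edgeR or DESeq2, and 1 had an unadjusted edgeR p under 0.05. Of the 4 other SMADs tested in each line, 25% passed in each, against the same shares of all genes. SMAD4 was lower in both, at -0.31 ± 0.08 in DND-41 (edgeR adjusted p = 0.00552) and -0.28 ± 0.08 in MOLT-4 (edgeR adjusted p = 0.0194, but 0.199 with DESeq2).

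Of the regulators and partners of SMADs, 1 of 27 was lower and 0 higher in DND-41, which was 3.7% against 9.83% of all genes. In MOLT-4, 6 of 26 were lower and 0 higher (3 lower with DESeq2), which was 23.1% against 10.8% of all genes. SMURF2, a ubiquitin ligase for SMADs and receptors, was lower in both. It had 971 and 976 counts in DND-41 with ACBI-1, against 1270 and 1230 with DMSO (-0.37 ± 0.07, edgeR adjusted p = 0.00079), and 637 and 666 counts in MOLT-4 with ACBI-1, against 1180 and 1200 with DMSO (-0.90 ± 0.07, adjusted p = 3.01e-09). The difference between the lines in this response, 0.50 ± 0.10, passed the threshold (adjusted p = 0.0101). LDLRAD4, which binds receptor SMADs and limits their phosphorylation, was lower in MOLT-4 (-0.42 ± 0.06, adjusted p = 2.67e-05), as was the acetyltransferase EP300, a SMAD co-activator (-0.28 ± 0.06, adjusted p = 0.00295).

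Of 18 target genes in DND-41, 3 were higher and 5 lower, 44.4% against 9.83% of all genes. DESeq2 called 8 there, with IL7R in place of CCR7. Of 21 in MOLT-4, 0 were higher and 7 lower, 33.3% against 10.8% of all genes, and 4 were called with DESeq2. The targets were listed with earlier results of these data known, so these shares are a description only. ID1, a BMP target that inhibits E proteins, had 42 and 51 counts in DND-41 with ACBI-1, against 88 and 105 with DMSO (-1.06 ± 0.21, edgeR adjusted p = 0.000665). In MOLT-4, ID1 had 70 and 95 counts with ACBI-1, against 180 and 224 with DMSO (-1.32 ± 0.16, adjusted p = 2.5e-06). ID3, of the same family, was higher in DND-41, with 2445 and 2952 counts with ACBI-1, against 1152 and 1068 with DMSO (1.27 ± 0.08, adjusted p = 7e-14). The ID genes thus did not move as a group. In MOLT-4, ID3 had 1409 and 1010 counts with ACBI-1, against 1041 and 1009 with DMSO, and did not pass (adjusted p = 0.18), and the difference between the lines was 1.04 ± 0.14 (adjusted p = 8.14e-05).

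KLF10 and MSX1 were among the lowest in MOLT-4. KLF10 had 493 and 411 counts in MOLT-4 with ACBI-1, against 1247 and 1349 with DMSO (-1.55 ± 0.08, edgeR adjusted p = 1.08e-12). In DND-41, KLF10 had 230 and 206 counts with ACBI-1, against 283 and 258 with DMSO (-0.32 ± 0.12, adjusted p = 0.0884), and the difference between the lines was 1.21 ± 0.15 (adjusted p = 3.62e-05). MSX1 had 88 and 65 counts in MOLT-4 with ACBI-1, against 187 and 206 with DMSO (-1.39 ± 0.16, adjusted p = 6.27e-07). In MOLT-4, for both genes, each ACBI-1 library lay below each DMSO library.

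GADD45B, a stress gene induced by TGF-beta, had 2211 and 2590 counts in DND-41 with ACBI-1, against 1149 and 1259 with DMSO (0.99 ± 0.08, edgeR adjusted p = 3.42e-11), and ITGAE, the integrin chain CD103, was higher there (0.60 ± 0.08, adjusted p = 3.72e-06). In MOLT-4, GADD45B did not pass (0.26 ± 0.15, adjusted p = 0.338), and the difference between the lines was 0.70 ± 0.17 (adjusted p = 0.0488), lost on leaving out any of 6 of the 8 libraries. CXCR4, a chemokine receptor gene, was lower in both lines, at -1.27 ± 0.07 in DND-41 (adjusted p = 2.69e-15) and -1.03 ± 0.06 in MOLT-4 (adjusted p = 2.08e-11). CCR7, which guides T cells to lymph nodes, was at -0.41 ± 0.12 in DND-41 (adjusted p = 0.0254) and -1.38 ± 0.29 in MOLT-4 (adjusted p = 0.00207) by edgeR, but was called in neither line with DESeq2 (adjusted p = 0.253 and 0.0802). CDKN1A, the cell cycle inhibitor p21, and RUNX3 were lower in DND-41, at -0.70 ± 0.11 (adjusted p = 5.76e-05) and -0.37 ± 0.07 (adjusted p = 0.000349).

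**Figure D4:**
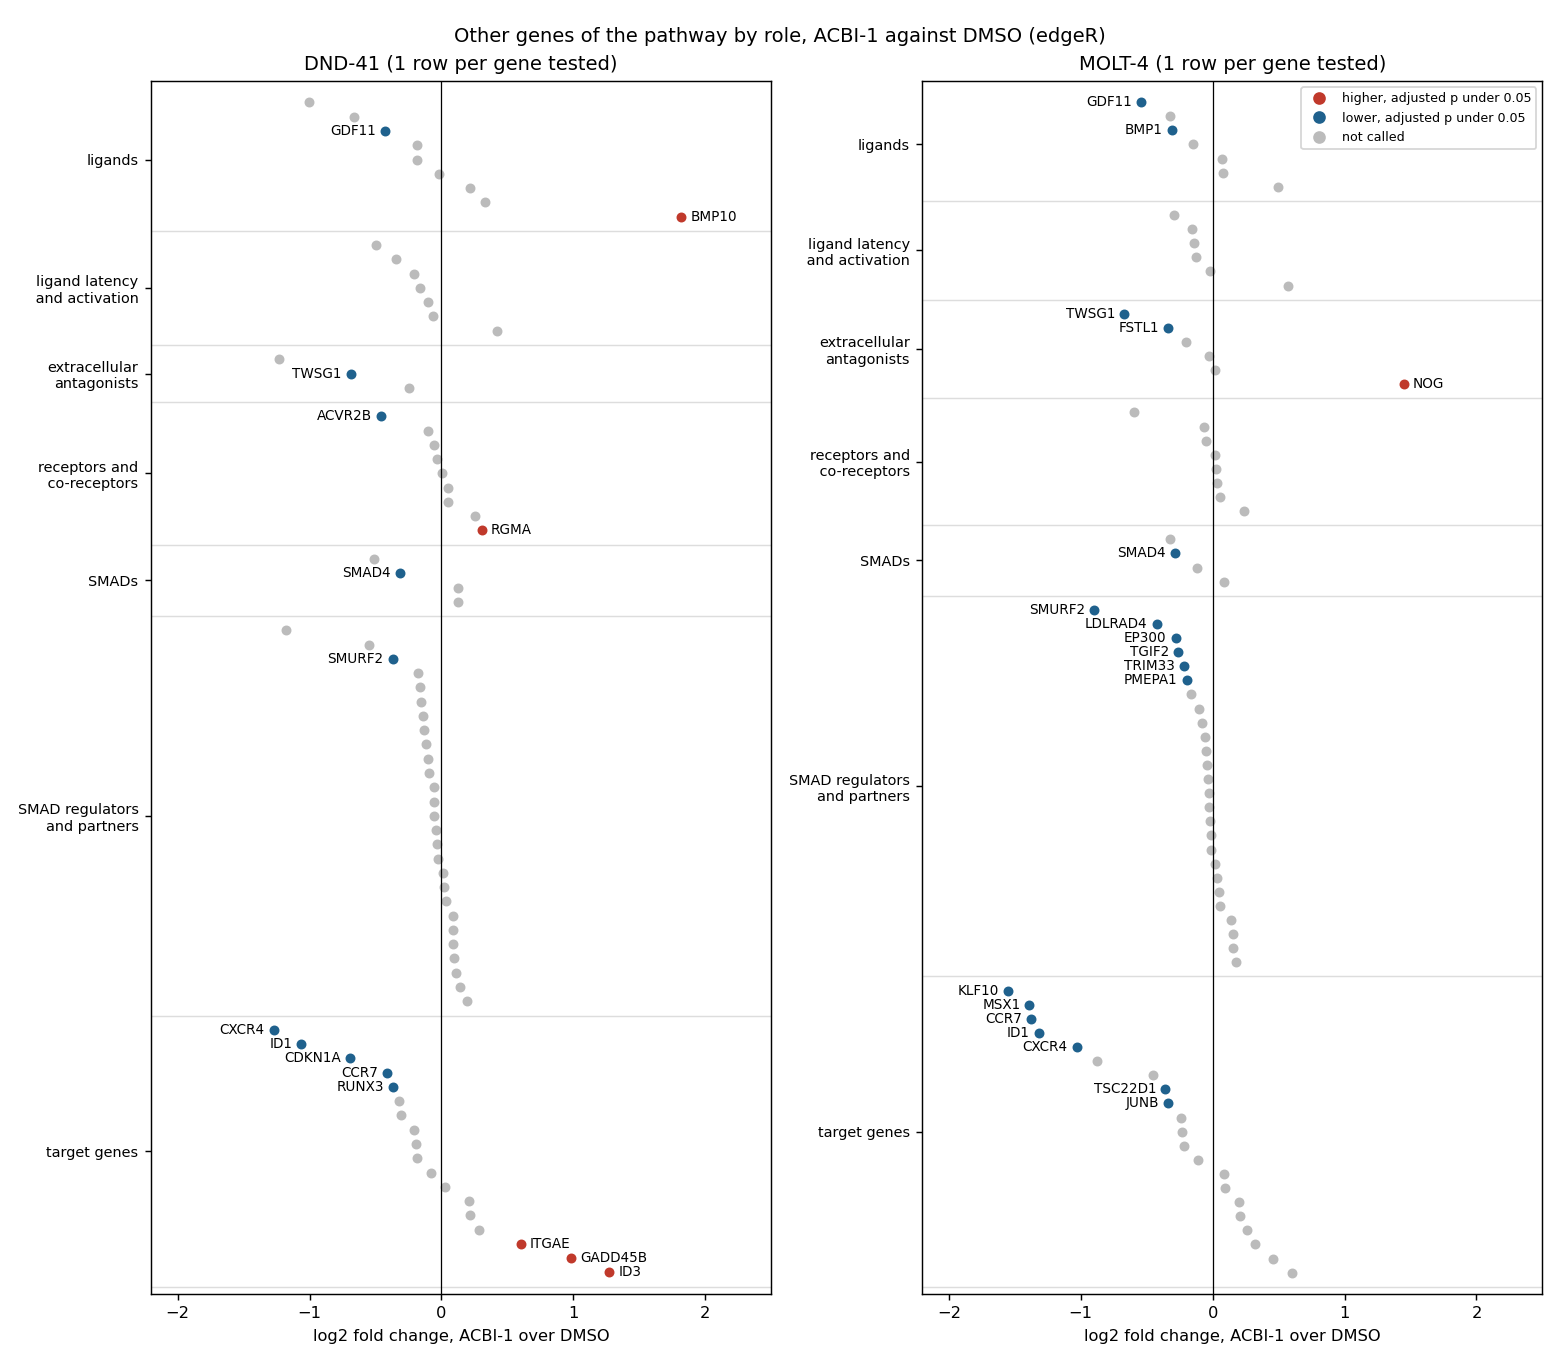
Log2 fold changes, ACBI-1 over DMSO, of all tested other pathway components in each line, by list. Genes that passed the threshold are coloured and named, and the others are grey. ID1 lay below 0 in both lines (-1.06 in DND-41 and -1.32 in MOLT-4), ID3 was at 1.27 in DND-41, and KLF10 was at -1.55 in MOLT-4.

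The 5 genes whose log2 (CPM + 0.5) over the 8 libraries was most like that of BMP4, among genes with a mean of at least 5 CPM, were PDCD1, FAM102A, CICP14, S1PR3 and SCMH1, with Pearson's r between 0.99271 and 0.99857. The libraries fall into the 2 lines, so these r values carry the line difference and are a description only. PDCD1, which encodes the inhibitory receptor PD-1, averaged 4.70 CPM with ACBI-1 and 16.8 CPM with DMSO in MOLT-4 (log2 fold change -1.86 ± 0.14), and 0.05 CPM in both DND-41 groups. S1PR3, a sphingosine-1-phosphate receptor gene, averaged 6.96 CPM with ACBI-1 and 15.5 CPM with DMSO in MOLT-4 (-1.18 ± 0.13). FAM102A was present in both lines, at 65.3 CPM with ACBI-1 and 101 CPM with DMSO in MOLT-4. CICP14 is a pseudogene with near-identical copies, and its counts are uncertain.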

How the data were processed

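Paired-end libraries that keep strand were sequenced, per the labels' protocols. The authors deposited raw read counts per gene, 1 table per line, and per the file headers 1 table per line with the outcome of their comparison, giving mean normalized signal, log2 fold change with its standard error, test score, p-value and adjusted p-value. The submitters' processing notes name the build hg19 and the tools STAR 2.5.2a, featureCounts and DESeq2 1.12.4. How counting treated strand, and with which annotation, is not given in the sources used here. The authors' deposited tables were used only to compare fold changes: the sign ran ACBI-1 over DMSO for DND-41 and DMSO over ACBI-1 for MOLT-4, read from a correlation of 1.0 and -1.0 with the fits made here, and tested members differed by at most 0.0087 in size.

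The members and gene lists were chosen with earlier results of these data known. edgeR 4.0.16 (R 4.3.3, limma 3.58.1) was run on the counts, with the quasi-likelihood F-test with TMM scaling and filterByExpr, on 4 libraries per line. The difference of the responses and that of the lines in DMSO came from 1 fit of all 8 libraries. Calls were made at 5% after Benjamini-Hochberg adjustment across the genes of each fit. An exact permutation test of 2 against 2 libraries cannot reach 0.05, so none was used. CPM used the total counts, and exon lengths and overlaps came from GENCODE 29. Replicates differed by more than sampling noise in every group, with a chi-square of 2.99 to 15.6 per gene. Where a symbol had 2 identifiers, the one with reads was taken.

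Named were all members, each list gene called by ACBI-1 (up to 10 per direction by smallest p) and, between lines, up to 3 per list and direction whose mean over the DMSO libraries reached 1 CPM, of which a part is described; SMAD4 in MOLT-4 and the overlap of the lines were added after their values were seen. Tested on simulated data, 80% of 1.5-fold changes and 99% of 2-fold changes were recovered in DND-41 (13824 genes). Recovery was 80% and 97% in MOLT-4 (14250 genes) and 43% and 86% for the difference of responses (15402 genes). The simulation gave every gene the same scatter beyond sampling noise and changed only well-covered genes. These shares therefore do not give the recovery for genes of low count, such as SMAD3 and SMAD7 in DND-41. Alternatives were DESeq2 1.42.0, its size factors, scaling by totals, no filter, a replicate block, all 8 libraries in 1 fit, removal of the MOLT-4 reads estimated in 1 DND-41 library, and leaving out each library.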

Additional observations from a re-analysis of the deposited data

Results flagged for a closer look

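Responses that differed between the lines, by the interaction term of edgeR at an adjusted p threshold of 5% over all genes, are given as the DND-41 response minus the MOLT-4 response on the log2 scale. Among the members these were TGFBR2 at -0.635, NRROS at 0.635 and SKIL at 1.03, which were listed with these results known and are given as values only. With DESeq2, TGFBR2 and NRROS were called and SKIL was not. Without the filter on low counts, of the members only NRROS was called. Among the other pathway components they were SMURF2 at 0.50, ID3 at 1.04, KLF10 at 1.21 and GADD45B at 0.70. The log2 fold change of NRROS was 0.42 for DND-41 and -0.24 for MOLT-4. For ID3 and GADD45B the change passed in DND-41, and for KLF10 in MOLT-4. SMURF2 was lower in both lines and by more in MOLT-4. ID3 and KLF10 passed without any single library of the 8, and SMURF2 did not pass without DND-41 DMSO replicate 2 (adjusted p = 0.0737) or without MOLT-4 ACBI-1 replicate 1 (adjusted p = 0.0779).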

How the results depend on the processing

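Over 416 alternative values of the members, leaving out the BMP4 difference of responses, 395 moved the log2 fold change by less than 1 SE and 21 by more. Of the 279 that belong to values called with edgeR, 62 were not called, and over 1348 alternative fits of called wider pathway genes, 1191 kept their side of the threshold and 157 did not. No called value changed direction. With edgeR, 1378 genes and 15 pathway genes were called in DND-41, 1568 and 19 in MOLT-4, 100 and 4 for the difference of responses, and 10050 and 67 between the lines. DESeq2 called 612 genes in DND-41, and 689 genes and 9 pathway genes in MOLT-4. Without the filter on low counts, 2 genes and 1 pathway gene were called in DND-41, 39 and 3 in MOLT-4, and 13 and 1 for the difference of responses, and the cause was not tested. The labels do not say that replicate numbers pair libraries, and deviations of same-numbered libraries correlated by 0.067 in each line, the pairing check. With the replicate block, 2230 genes were called in DND-41, and 302 genes and 11 pathway genes for the difference of responses. Leaving out 1 library at a time gave 3 to 632 genes and 2 to 13 pathway genes in DND-41 (fewest without ACBI-1 replicate 1), and 0 to 1430 genes and 0 to 22 pathway genes in MOLT-4. There both 0 counts from edgeR came without an ACBI-1 library, and 1874 and 2273 genes had an unadjusted p under 0.05. It gave 49 to 138 genes and 2 to 5 pathway genes for the difference of responses, and 9154 to 10442 genes and 64 to 69 pathway genes between the lines. A lone library in such a fit is assumed to vary like the others. Depth limited SMAD7 in both lines and BMP4 in DND-41, which had too few reads to test ACBI-1 against DMSO with edgeR.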
